A study of Mus musculus with 25 samples.

Results

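The joins described here connect the cut end of a Cas9 bait to the first Ter element of a Ter array, with the joined cassette DNA running leftward, away from the array. They were chosen as junctions on the minus strand within a 28-bp window that starts at Ter base 2 of the array, and with a far end that left at least 20 bp of unique sequence left of the array in the joined DNA. This rule took 1316 of 11867 deposited junctions (11.1%). Of these, 1313 came from cells given Tus, 2 from cells given I-SceI and 1 from cells given EV, read here as empty vector.

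Junctions came from mouse embryonic stem cells grown on MEF feeders, 48 h after transfection, and were mapped by LAM-HTGTS, in which DNA joined to a bait break is amplified from a primer beside the break and sequenced. All groups carried a Cas9 bait break 30 kb from a 4-kb 1xGFP cassette in the ROSA26 locus. The 8 Tus groups combined the genotypes BRCA1del/exon11 and BRCA1flox/exon11, called BRCA1del and BRCA1flox below, with siRNA to BLM, BRCA1, FANCM or, as the control, Luciferase. The I-SceI and EV groups were BRCA1del cells with siRNA to FANCM. Both genotypes share the exon11 allele, so neither is BRCA1 wild type by its label.

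Tus is a bacterial protein that binds Ter elements and blocks a replication fork arriving from one side. BRCA1 acts in homologous recombination and in the handling of stalled forks. BLM is a helicase that unwinds recombination intermediates, and FANCM is a DNA translocase that remodels stalled forks. End joining can leave blunt joins, inserted bases, or microhomology, meaning a few bases that fit both partners at the join. Blunt joins and short insertions are typical of classical non-homologous end joining, and longer microhomology is typical of alternative end joining after resection.

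The bait end is shown because its letters set which bases a join can share with the first Ter element. It was read from the bait part of the deposited reads, 5′ to 3′ toward the Cas9 cut, and its last 10 bases are in capitals. It belongs to the ROSA26 locus on mouse chromosome 6, and its start and end in a genome build were not determined here.
Bait end: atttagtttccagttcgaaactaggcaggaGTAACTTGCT

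Positions are given as bases of the first Ter element, counted from its left end. Ter base 1 is the base after cassette position 3047 in the deposited coordinates, which are not coordinates of a genome build, and the 23-bp element ended at cassette position 3070. It was followed by a 5-bp spacer, bases 24 to 28 on this count, and the second Ter element began at base 29. The window of the members holds bases 2 to 29. The deposited position is the last base of the joined DNA, with shared bases counted in it. Base 2, the first inside, held 31 joins of the Tus groups, against 30 at base 1. Base 29, the last inside, held 49, against 67 at base 30. Far ends in the last 10 bp within the limit were found in 30 joins, against 64 in the 10 bp beyond it, and 92 of 1405 joins in the window were left out by this limit.

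Read names carry a sequencing run, and each of 4 runs, here called A to D, was taken as 1 library of a group, which gave 21 Tus libraries. These libraries held 148 to 933 junctions, and 15 to 110 members each, with a median of 66. Members of 1 library share their source and amplification, so conditions were compared over libraries. Within libraries, 1312 of 1313 members were distinct by position, bait end and far end, and 1246 (94.9%) were distinct by position and bait end alone. The labels do not say whether libraries of a group came from separate cultures, and p-values therefore cover only the spread seen between libraries, part of which may be technical.

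Leftward joins at the first Ter element made up a large share of leftward array joins in Tus libraries and a small one in I-SceI libraries. Among those with a placed far end, members made up 38.7% in run A, 52.0% in run C and 34.9% in run D of Tus-expressing BRCA1del cells with siFANCM, against 2.56% in run A and 3.12% in run C of I-SceI cells with the same genotype and siRNA. The groups did not overlap. The mean was 41.9% ± 9.0 (SD, n = 3) with Tus and 2.84% ± 0.40 (SD, n = 2) with I-SceI, a difference of 39.0 percentage points, and an exact two-sided permutation test gave p = 0.10, the smallest that 3 against 2 libraries allow. The I-SceI shares rest on 1 of 39 and 1 of 32 joins, since 39 of 222 and 32 of 233 leftward array joins were placed. Over all leftward array joins, placed or not, the difference was 30.5 points, and over all junctions of the cassette body 22.7 points. EV libraries gave 1 placed leftward array join in all, which was a member.

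Over all Tus groups, members made up 41.7% of 3148 placed leftward array joins, in a window that covers 28 of the 252 bp of the array window (11.1%). A join further right needs longer joined DNA to reach the far-end limit, so placed joins favour the left of the array. The share of joins and the share of bases are therefore not on equal terms. Over all groups, with and without Tus, 3220 of 4882 leftward array joins were placed. By group the mean share among placed leftward array joins was 48.4% ± 4.27 in BRCA1del cells with siBLM, 42.7% ± 0.92 with siBRCA1, 41.9% ± 9.0 with siFANCM and 44.4% ± 9.67 with siLuciferase (SD, n = 3 each). In BRCA1flox cells it was 37.7% ± 6.14 with siBLM (SD, n = 2), 37.0% ± 1.59 with siBRCA1 (SD, n = 2), 42.4% ± 2.27 with siFANCM (SD, n = 3) and 35.6% ± 5.67 with siLuciferase (SD, n = 2). Library shares spanned 34.9 to 54.3% in BRCA1del cells and 31.6 to 44.5% in BRCA1flox cells, so the genotypes overlapped. The difference averaged over the 4 siRNAs was 6.17 points (exact permutation of libraries within siRNA, two-sided p = 0.0323, adjusted p = 0.194 over 24 tests) and did not pass. It passed when shares were taken over all leftward array joins, placed or not (8.33 points, exact permutation, adjusted p = 0.0360), or over all junctions of the cassette body (6.61 points, exact permutation, adjusted p = 0.0276).

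Within the window, joins were spread over all 28 positions, and 1038 of 1313 (79.1%) lay in the first Ter element, 226 in the spacer and 49 at the first base of the second element. A uniform spread would give 3.57% per position. The mean share over the 8 Tus groups ran from 0.733% at base 3 to 5.78% at base 24, the first spacer base. The 6 positions with the highest mean shares held 31.9% of joins.

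Base 24 held 71 joins, found in 21 of 21 libraries, and its group shares ran from 2.96 to 7.69%. It averaged 4.33% in BRCA1del groups and 7.23% in BRCA1flox groups. Base 23, the last of the element, held 70 joins and averaged 4.51% in BRCA1del groups and 6.75% in BRCA1flox groups. These neighbours at the right edge of the element were higher in BRCA1flox on average, and no test was run on single positions.

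Ter base 19 held 75 joins and averaged 6.34% in BRCA1del groups and 4.92% in BRCA1flox groups. Ter base 18 held 70 joins and averaged 4.74% in BRCA1del groups and 6.17% in BRCA1flox groups. Ter base 20 held 64 joins and averaged 3.40% in BRCA1del groups and 7.27% in BRCA1flox groups. Joins at these neighbouring bases thus differed in direction between the genotypes.

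Ter base 5 stood apart in the left part of the element, with 69 joins, between 37 at base 4 and 21 at base 6. It averaged 6.11% in BRCA1del groups and 3.96% in BRCA1flox groups, and was at 0 in the BRCA1flox siLuciferase group, which had 130 members. The mean shares of the 6 positions ran from 5.04 to 5.78% and their SDs over the 8 groups from 1.73 to 2.41 points, so neighbours in this order do not differ beyond the spread between groups.

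**Figure D1:**
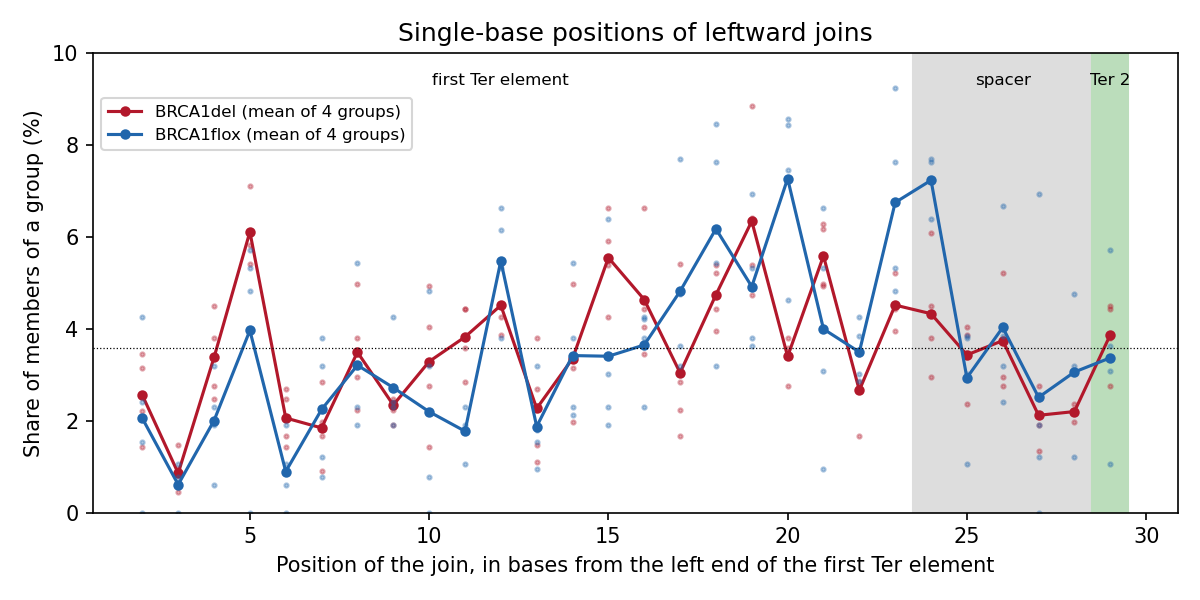
Share of a group's members (%) at each position, counted in bases from the left end of the first Ter element. Lines join the means of the 4 BRCA1del and the 4 BRCA1flox groups, dots are single groups, the dotted line is the uniform share of 3.57%, and the grey and green bands mark the spacer and the first base of the second Ter element. Ter base 3 has the lowest mean share (0.733%), and the BRCA1flox line is above the BRCA1del line at the last Ter base and the first spacer base.

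Positions differed in how their joins were built, both among the 6 with the highest mean shares and outside them. At base 5, 31 of 69 joins were blunt (44.9%) and 15 shared 2 bp or more. At base 18, 46 of 70 joins shared 2 bp or more (65.7%) and 6 were blunt. At base 11, next to base 12, none of 40 joins shared 2 bp or more, whereas 34 of 65 did so at base 12 (52.3%). The last position of the window, base 29, had 32 of 49 such joins (65.3%). Over the 28 positions, the profile of joins with 2 bp or more of microhomology had a correlation of r = 0.19 with that of the other joins, as a description across positions that share libraries and base composition.

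By part of the element, Ter bases 2 to 8 held 20.1% ± 3.69 of a BRCA1del library's members (SD, n = 12) and 13.7% ± 6.77 of a BRCA1flox library's (SD, n = 9). Ter bases 17 to 23 held 29.9% ± 7.70 in BRCA1del libraries (n = 12) and 37.0% ± 4.34 in BRCA1flox libraries (n = 9). Ter bases 9 to 16 held 29.6% ± 4.61 and the spacer 16.6% ± 5.19 in BRCA1del libraries, and in BRCA1flox libraries the 2 parts held 26.1% ± 7.86 and 19.6% ± 5.92. The profiles of the genotypes over the 28 positions had r = 0.57, as a description.

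The mean position of a library's members lay at Ter base 15.47 to 17.60 in BRCA1del libraries, with a median of 15.99, against 15.03 to 20.12 in BRCA1flox libraries, with a median of 17.46. The ranges overlapped. The mean over siRNAs was base 16.20 in BRCA1del and base 17.65 in BRCA1flox, a difference of -1.45 bp, that is further left in BRCA1del (exact permutation, two-sided p = 0.0091, adjusted p = 0.109), which did not pass over the 24 tests. It passed in libraries of at least 20 members (-1.61 bp, exact permutation, adjusted p = 0.0432) and in a window that ended at base 24 (-1.68 bp, exact permutation, adjusted p = 0.0168). With shared bases given to the bait in place of the joined DNA, the difference was -1.10 bp (exact permutation, adjusted p = 0.194).

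Of the 1313 joins, 531 (40.4%) had microhomology of 2 bp or more, 316 (24.1%) shared 1 bp, 264 (20.1%) were blunt and 202 (15.4%) held inserted bases. Microhomology was short: 290 joins shared 2 bp, 135 shared 3 bp and 68 shared 4 bp. Overlaps of 7 bp or more were called in 22 joins, with 11 bp as the longest call. Some calls of 9 or 11 bp include a mismatched base. Inserted bases numbered 1 in 82 of 202 joins, with a median of 2 bp and a longest run of 71 bp. Runs of 10 bp or more were found in 43 joins.

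Blunt joins at the first Ter element were more frequent in BRCA1del than in BRCA1flox cells. The libraries of BRCA1del cells given siBLM held 24.5, 29.5 and 24% blunt joins, those given siBRCA1 18.1, 19.1 and 20%, those given siFANCM 25.6, 25.5 and 20% and those given siLuciferase 20.6, 22.8 and 26.3%. The libraries of BRCA1flox cells given siBLM held 12.7 and 5.88%, those given siBRCA1 15.2 and 3.57%, those given siFANCM 23.5, 16.9 and 19.2% and those given siLuciferase 15.6 and 5.0%. The genotypes did not overlap under siBLM, siBRCA1 or siLuciferase, and overlapped under siFANCM.

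Averaged over the 4 siRNAs, the blunt share was 23% in BRCA1del cells and 12.2% in BRCA1flox cells, 10.8 points higher in BRCA1del (exact permutation of libraries within siRNA, two-sided p = 0.0001, adjusted p = 0.0024 over 24 tests). All 8 pairs of libraries of the same siRNA and run had the higher share in BRCA1del. Within run C the shares averaged 24.2% in BRCA1del and 15.1% in BRCA1flox (9.16 points, 4 of 4 siRNAs higher in BRCA1del). Within run D they averaged 22.6% in BRCA1del and 8.42% in BRCA1flox (14.2 points, 4 of 4 higher in BRCA1del). The call was lost without run C (13.4 points, exact permutation, adjusted p = 0.148), without run D (7.33 points, exact permutation, adjusted p = 0.0741) and with the window set to bases 1 to 23, the element alone (7.88 points, exact permutation, adjusted p = 0.0800).

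The genotype difference in blunt joins was also found in the neighbouring leftward joins of the same libraries, in tests chosen after the data had been seen. Left of the first Ter element, blunt joins averaged 25.1% in BRCA1del and 10.1% in BRCA1flox (14.98 points, higher in BRCA1del in 7 of 8 pairs of the same siRNA and run, exact permutation, adjusted p = 0.0149 over 4 tests). At later Ter elements they averaged 15.8% in BRCA1del and 8.64% in BRCA1flox (7.16 points, 6 of 8 pairs, exact permutation, adjusted p = 0.0136). The genotype difference at the first Ter element minus that left of it was -4.17 points (exact permutation, adjusted p = 0.410), and minus that at later elements 3.65 points (exact permutation, adjusted p = 0.243), and neither passed.

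The blunt share was higher in BRCA1del in each part of the window, with counting intervals that overlapped for 4 of 4 parts. In Ter bases 9 to 16, 72 of 243 BRCA1del joins were blunt (29.6%, Wilson 95% interval 24.2 to 35.7%), against 23 of 123 BRCA1flox joins (18.7%, 12.8 to 26.5%). In the spacer, 38 of 129 BRCA1del joins were blunt (29.5%, 22.3 to 37.8%), against 16 of 97 BRCA1flox joins (16.5%, 10.4 to 25.1%). In Ter bases 17 to 23 the share was 16.5% (12.4 to 21.7%) in BRCA1del and 10.8% (7.07 to 16%) in BRCA1flox, and in Ter bases 2 to 8 it was 22.3% (16.6 to 29.2%) and 18.1% (10.9 to 28.5%). The reads were amplified and were not reduced to molecules here. The intervals pool joins over libraries as if independent, so they cover no more than counting error and leave out the spread between libraries.

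**Figure D2:**
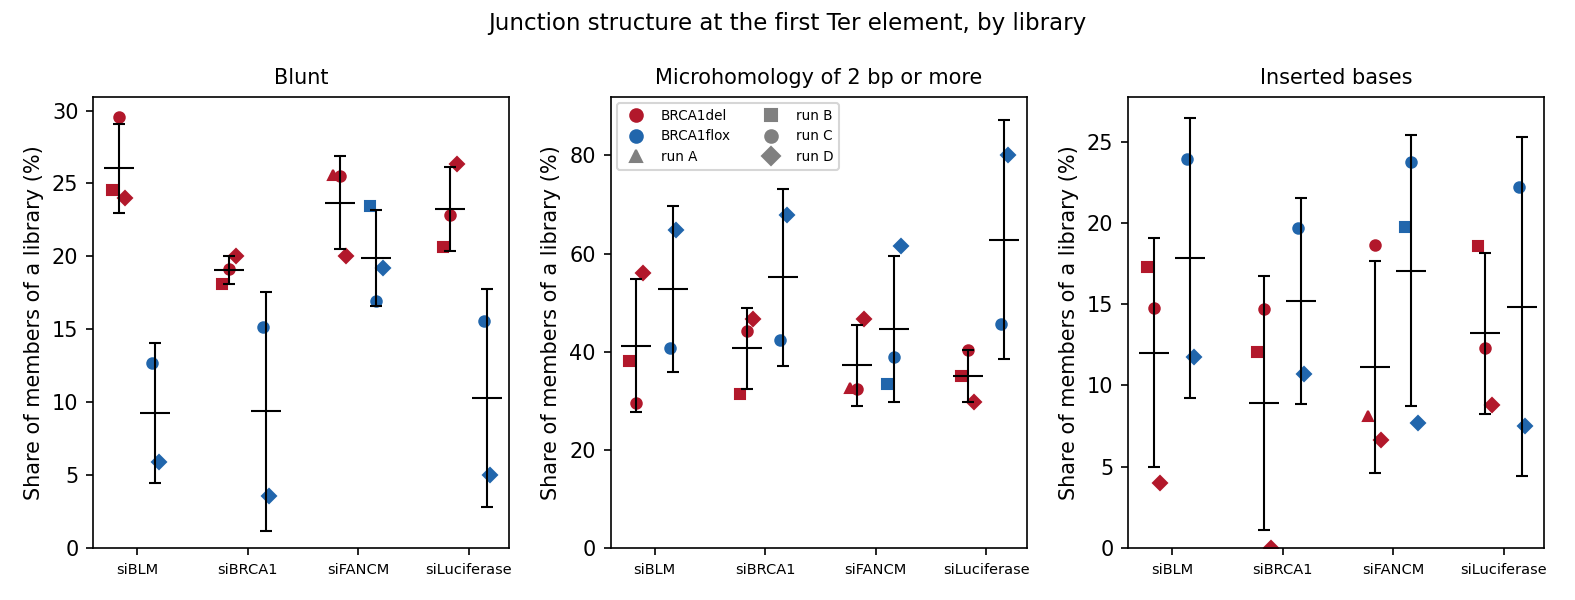
Share of a library's members (%) that were blunt, shared 2 bp or more with the bait, or held inserted bases, for each siRNA, with BRCA1del left of BRCA1flox. Points are libraries with their run as the marker, and black bars give the mean and SD. Blunt shares of BRCA1del libraries lie between 18.1 and 29.5%, and those of BRCA1flox libraries between 3.57 and 23.5%.

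The share of members with 2 bp or more of microhomology had a lower mean in BRCA1del than in BRCA1flox cells, and this did not pass the test. In BRCA1del libraries of runs C and D it was 29.5 and 56.0% under siBLM, 44.1 and 46.7% under siBRCA1, 32.4 and 46.7% under siFANCM and 40.4 and 29.8% under siLuciferase. In BRCA1flox libraries of runs C and D it was 40.8 and 64.7% under siBLM, 42.4 and 67.9% under siBRCA1, 39.0 and 61.5% under siFANCM and 45.6 and 80.0% under siLuciferase. In these 8 groups, run D had the higher value in 7. The share of joins sharing 2 bp or more was 29.5 to 56.0% in the 12 BRCA1del libraries, with a median of 36.6%, and 33.3 to 80.0% in the 9 BRCA1flox libraries, with a median of 45.6%. The means over siRNAs were 38.6% in BRCA1del and 53.8% in BRCA1flox, a difference of -15.3 points (exact permutation, two-sided p = 0.0152, adjusted p = 0.121), and 7 of 8 pairs of the same siRNA and run had the lower share in BRCA1del. The value was 17.4 points higher in run D than in run C, which did not pass (exact sign-flip permutation, adjusted p = 0.0703 over 6 measures). Under siBLM, siBRCA1 and siLuciferase, BRCA1del had runs B, C and D and BRCA1flox only C and D. Under siFANCM, run A was in BRCA1del only and run B in BRCA1flox only. The permutation did not match runs, and in run-matched pairs the difference was -14.5 points (exact sign-flip permutation, adjusted p = 0.188). The difference was -5.36 points within run C and -23.7 points within run D.

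By overlap length, the means of the genotypes lay furthest apart at 0 to 2 bp. Joins with 1 shared base made up 27.1% ± 6.73 of a BRCA1del library's members (SD, n = 12) and 17.8% ± 5.38 of a BRCA1flox library's (SD, n = 9). Joins with 2 shared bases made up 22.3% ± 8.47 in BRCA1del and 29.4% ± 11.4 in BRCA1flox libraries. Joins with 4 shared bases made up 4.74% ± 2.77 in BRCA1del and 7.06% ± 2.73 in BRCA1flox libraries, and 7-bp overlaps 1.31% ± 1.33 in BRCA1del and 1.43% ± 1.58 in BRCA1flox libraries. No test was run on single lengths.

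**Figure D3:**
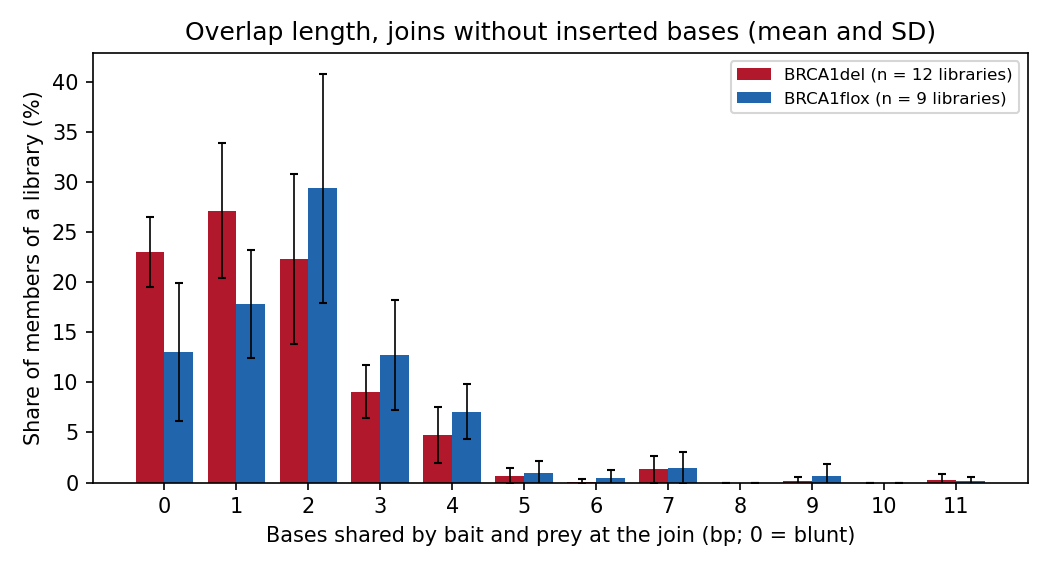
Share of a library's members (%) by the number of bases that bait and joined DNA shared, for joins without inserted bases, with 0 as blunt. Bars are means over 12 BRCA1del and 9 BRCA1flox libraries and error bars are SDs. BRCA1del bars are higher at 0 and 1 bp, and BRCA1flox bars are higher from 2 to 7 bp.

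The shared bases can be read from the bait end above. The 2 bases TT were the most frequent microhomology, in 78 joins of 21 libraries, and 39 of these used the bait end short of its last 3 bases. TA followed with 66 joins of 19 libraries, 33 of them at a bait end 7 bp short. ACTT was shared by 34 joins of 20 libraries, 18 BRCA1del and 16 BRCA1flox, all at a bait end 3 bp short of the cut, where it forms the last letters. AAC was shared by 28 joins, 14 of each genotype, all at base 12.

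Of the longer overlaps named here, AGTT and TTTAGTT each fell at 1 position and ACTT at 2. Shared bases can only fall where the cassette holds the same letters. AGTT was shared by 17 joins, 9 BRCA1del and 8 BRCA1flox, all at base 18. The 7-bp overlap TTTAGTT was shared by 14 joins of 13 libraries, 9 BRCA1del and 5 BRCA1flox, all at base 21 and all at a bait end 32 bp short of the cut. The same letters stand near the left end of the printed bait sequence.

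Many joins recurred across libraries. The 1313 joins took 500 distinct combinations of position and bait end, 284 of which were seen once (56.8%). The 25 combinations seen 10 times or more held 350 members (26.7%), and 20 of the 25 had 2 bp or more of overlap. The 5 most frequent held 98 members (7.46%).

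The full bait end joined to base 22 was seen 21 times in 16 libraries, 11 times in BRCA1del and 10 times in BRCA1flox, and its 21 copies had 21 different far ends. Of these, 4 held inserted bases, and most others shared CT, the last letters of the bait. The join of base 23 to the bait end 3 bp short, was also seen 21 times, 19 of them sharing ACTT and 2 with inserted bases, in 15 libraries, 11 times in BRCA1del and 10 times in BRCA1flox. Base 12 with a bait end 5 bp short, sharing AAC, was seen 19 times in 18 libraries, 10 times in BRCA1del and 9 times in BRCA1flox. Each of these 3 joins was found in all 8 Tus groups.

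Base 16 was joined to a bait end 3 bp short, with TT as the shared bases and 1 copy with an insertion, 19 times, 14 in BRCA1del and 5 in BRCA1flox. The same base was joined to the full bait end, with no shared base and 4 copies with inserted bases, 18 times in 11 libraries, 13 in BRCA1del and 5 in BRCA1flox. BRCA1del cells held 818 of the 1313 members and BRCA1flox cells 495, so counts are not rates. Whether copies in different libraries arose separately was not tested, and their far ends, which sonication sets, were mostly different.

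Inserted bases were found in 0 to 18.6% of members of BRCA1del libraries, with a median of 12.2%, and in 7.50 to 23.9% of members of BRCA1flox libraries, with a median of 19.7%. The genotypes overlapped, and the difference of means over siRNAs, -4.92 points, did not pass (exact permutation, two-sided p = 0.121, adjusted p = 0.378). Of the 8 pairs of the same siRNA and run, 7 had fewer insertions in BRCA1del (-5.93 points, exact sign-flip permutation, two-sided p = 0.0234, adjusted p = 0.188), and without run C it was -1.49 points. Insertions of 10 bp or more were called in 17 of 818 BRCA1del and 26 of 495 BRCA1flox members, a length at which calls were not tested on simulated data. The share differed between runs C and D: it was 7.14% ± 3.75 in run D and 18.7% ± 4.45 in run C (SD, n = 8 each), lower in run D in 8 of 8 groups (-11.6 points, exact sign-flip permutation, two-sided p = 0.0078, adjusted p = 0.0469 over 6 measures). Run D libraries held 15 to 57 members and run C libraries 57 to 102.

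Bait ends ran from the full end to losses of 50 bp or more, and 694 of 1313 joins (52.9%) had lost 10 bp or more. The median loss was 11 bp, with quartiles of 3 and 27 bp, and 186 joins (14.2%) used the full bait end. The full bait end was used by 15.1% ± 4.33 of a BRCA1del library's members (SD, n = 12) and 9.60% ± 5.68 of a BRCA1flox library's (SD, n = 9). Losses of 1 to 9 bp made up 32.4% ± 4.80 in BRCA1del and 34.3% ± 6.60 in BRCA1flox libraries, losses of 10 to 19 bp 17.9% ± 4.80 in BRCA1del and 21.6% ± 6.23 in BRCA1flox libraries, and losses of 20 to 49 bp 21.9% ± 7.35 in BRCA1del and 17.9% ± 3.43 in BRCA1flox libraries. Losses of 50 bp or more made up 12.7% ± 5.97 in BRCA1del and 16.6% ± 6.90 in BRCA1flox libraries.

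Losses of 10 bp or more were found in 34.9 to 63.3% of members of BRCA1del libraries and 51.9 to 62.5% of members of BRCA1flox libraries. The difference of means over siRNAs was -3.89 points (exact permutation, two-sided p = 0.142, adjusted p = 0.378) and did not pass. With 5 bp as the minimum it was -6.88 points and passed (exact permutation, adjusted p = 0.0222), and with 20 bp as the minimum it was -0.50 points (exact permutation, adjusted p = 0.982). Without run A, whose 1 Tus library was the lowest at 34.9%, the difference at 10 bp was -2.41 points, and in run-matched pairs it was -1.19 points.

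Structure and loss went together. Of joins with the full bait end, 37.1% were blunt and 11.8% shared 2 bp or more, whereas of joins that had lost 50 bp or more, 7.65% were blunt and 58.8% shared 2 bp or more. The median loss was 6 bp for blunt joins, 8 bp for joins sharing 1 bp, 11 bp for joins with inserted bases and 17 bp for joins sharing 2 bp or more. Insertion joins used the full bait end in 27.3% of 110 BRCA1del joins and 9.78% of 92 BRCA1flox joins. Members of 1 library are not replicates, so these are descriptions.

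No siRNA contrast passed, and 0 of 18 had an unadjusted p under 0.05 by exact permutation. Against siLuciferase, averaged over the genotypes, the blunt share was 17.7% with siBLM (0.89 points higher, adjusted p = 0.983), 14.2% with siBRCA1 (-2.55 points, adjusted p = 0.700) and 21.8% with siFANCM (5.02 points, adjusted p = 0.378), and 16.8% with siLuciferase, by exact permutation of libraries within genotype. For microhomology the differences were -1.92 points with siBLM, -1.0 with siBRCA1 and -8.02 with siFANCM (exact permutation, adjusted p = 0.983, 0.983 and 0.754). Over the 6 measures and 3 siRNAs, adjusted p ran from 0.378 to 0.983 by exact permutation. The blunt share with siBRCA1 was lower than with siLuciferase in 5 of 5 run-matched pairs (-2.88 points, exact sign-flip permutation, two-sided p = 0.0625, the smallest that 5 pairs allow, adjusted p = 0.250). The genotype difference under each siRNA against that under siLuciferase did not pass in 18 tests either (exact permutation, unadjusted p from 0.09 to 0.96, adjusted p from 0.810 to 0.960).

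Joins at the first Ter element were set against other leftward joins of the same libraries. They differed from joins left of them in microhomology, and from joins at later Ter elements in blunt share and bait loss. All had to reach the same far-end limit, so joins at later Ter elements needed longer joined DNA than members did. Joins left of the window needed less. The regions need not hold the same letters either, and shared bases can only fall where the cassette matches the bait. All libraries have the same cassette, so a test over libraries cannot set such a difference apart. Whether unlike lengths or letters moved the shares was not tested. Joins left of the window numbered 485 over all groups, and joins right of it, at the later Ter elements, numbered 1419. Microhomology of 2 bp or more was found in 44.7% ± 13.9 of joins at the first Ter element and 34.4% ± 14.9 of joins left of it (SD, n = 21), higher in 20 of 21 libraries (10.3 points, exact sign-flip permutation, two-sided p = 9.0e-05, adjusted p = 7.2e-04 over 8 tests). At later Ter elements it was 51.3% ± 8.43, a difference of -6.65 points that did not pass (exact sign-flip permutation, adjusted p = 0.0681). It passed without run D (-11.6 points, exact sign-flip permutation, adjusted p = 0.0020) and with at least 10 joins per class (-8.12 points, exact sign-flip permutation, adjusted p = 0.0140).

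Blunt joins made up 18.7% ± 7.15 at the first Ter element and 12.8% ± 6.13 at later Ter elements (SD, n = 21), higher in 14 of 21 libraries (5.97 points, exact sign-flip permutation, adjusted p = 0.0042). This call was lost without run C (5.80 points, exact sign-flip permutation, adjusted p = 0.0869). Bait loss of 10 bp or more was found in 54.0% ± 6.40 of joins at the first Ter element and 58.6% ± 7.07 at later elements, lower in 15 of 21 libraries (-4.62 points, exact sign-flip permutation, adjusted p = 0.0217), a call lost without run B or run C. Insertion shares were 13.5% ± 6.67 at the first element, 13.8% ± 7.05 left of it and 14.9% ± 6.36 at later elements, and neither difference passed.

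**Figure D4:**
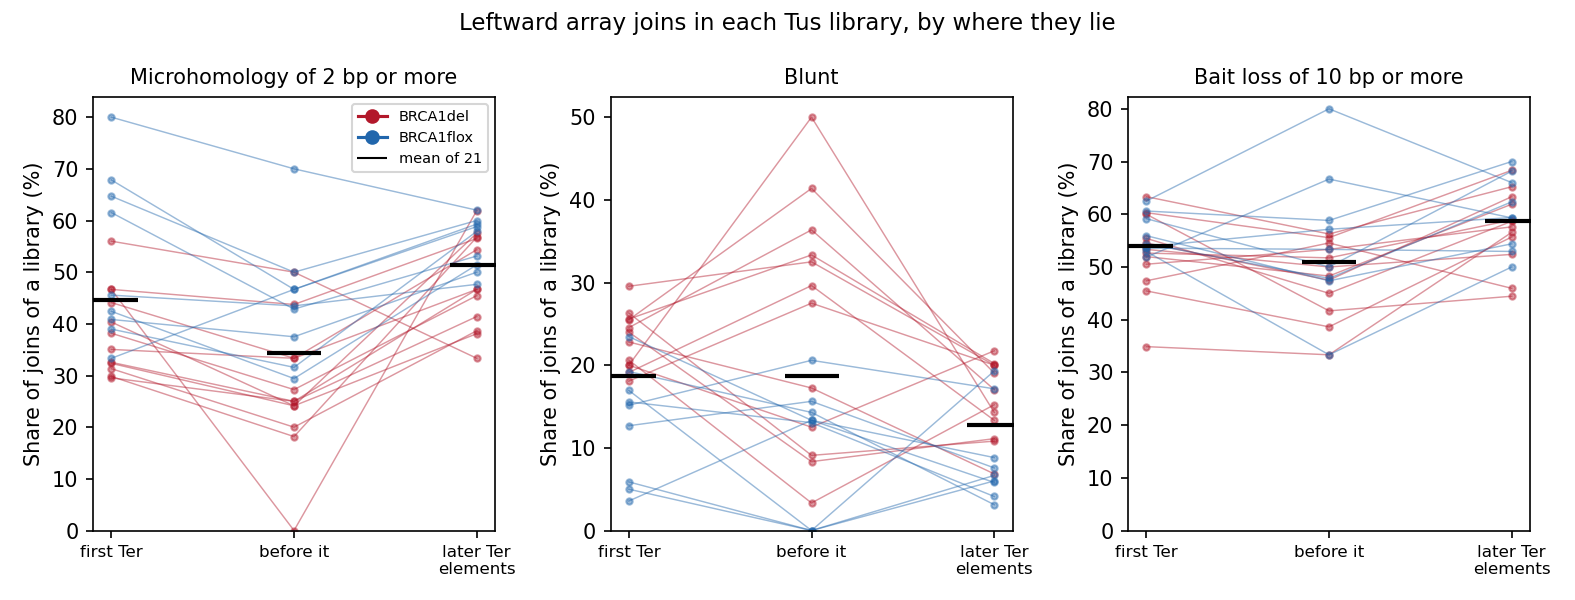
Share of leftward array joins (%) in each of 21 Tus libraries that shared 2 bp or more, were blunt or had lost 10 bp or more of the bait, for joins at the first Ter element, before it and at later Ter elements. Each line is a library, coloured by genotype, and black bars are means. The mean microhomology share is 44.7% at the first Ter element, 34.4% before it and 51.3% at later elements.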

How the data were processed

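The authors deposited 1 table per group with 1 junction per row. Its values are positions, strand and read sequence (no counts), so the unit is a cassette position. Bowtie2 and mm9 are named per the submitters' processing notes, and libraries were made by sonication with XbaI blocking, per the labels. Filters applied by the authors: not given in the sources used here. Tables pool samples, and 25 libraries were told apart by the run in the read names. Per group the runs equalled the labelled samples in number, without a replicate number. Runs C and D of a group share an inline barcode, and 0 to 2.55% of run D body joins had the same ends as a run C join of the group. For run D libraries of other groups, set against the same run C library, it was 0 to 4.12%.

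Members and measures were chosen with earlier results of these data known. The named positions were the 6 with the highest mean share over the Tus groups, and the named joins the 5 most frequent combinations of position and bait end.

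The bait end and cassette were rebuilt from the reads. Bait was extended from a 10-bp seed and joined DNA from a 12-bp seed, and structure was called for all 1316 members. Tested on simulated data, 99.9% of 2000 joins without and 96.3% of 2000 with 0.3% read errors were exact. All simulated insertions were shorter than 10 bp, so calls of longer insertions were not tested. Some overlaps of 9 or 11 bp include a mismatched base. Bait loss counts bases before the cut that are missing. Shares were computed per library from 15 to 110 members, and compared by two-sided exact permutation with Benjamini-Hochberg adjustment and a threshold of 0.05 (Python 3.11.15, SciPy 1.17.1). Alternatives left out runs, matched runs, collapsed repeats and moved the window, minima and denominators.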

Additional observations from a re-analysis of the deposited data

How the results depend on the processing

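No paired analysis was possible because the tables carry no replicate number by which labelled samples could be paired. Libraries of the same run were compared as pairs in its place. Over 326 alternative values of 33 results, 284 kept direction and side of the threshold, and 28 that turned round belong to results that had not passed. The blunt difference between BRCA1del and BRCA1flox was 7.33 to 13.4 points with a run left out, 11.7 points in run-matched pairs (exact permutation, adjusted p = 0.188, the smallest 8 pairs allow over 24 tests) and 7.88 points at Ter bases 1 to 23, a window chosen after seeing the data. Results that passed under an alternative were mean position at bases 2 to 24 (-1.68 bp) and with 20 members or more (-1.61 bp), first-Ter share per leftward array join (8.33 points) and per body junction (6.61), bait loss from 5 bp (-6.88 points), and microhomology against later Ter elements without run D (-11.6 points) and with 10 joins per class (-8.12 points).

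Values that turned round, in points, were for siBRCA1 against siLuciferase the first-Ter share (1.09 with position and bait end counted once, 2.02 at bases 2 to 24, 3.75 at bases 1 to 23, 1.44 per leftward array join, 0.11 per body junction, 0.48 with the far-end limit moved), microhomology (0.32 in run-matched pairs, 4.52 from 1 bp) and bait loss from 5 bp (-0.011). For siBLM against siLuciferase they were bait loss (-0.27 with position and bait end counted once, -0.69 at bases 2 to 24, -1.26 at bases 1 to 23, -2.72 from 5 bp) and mean position with shared bases given to the bait (0.00080 bp, chosen after seeing the data). Insertions against joins before the first Ter element gave 0.84 with 10 joins per class.

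With each run left out in turn, bait loss in BRCA1del minus BRCA1flox ranged over -6.31 to -2.41 points. In the same way, the first-Ter share against siLuciferase ranged over -3.11 to 8.47 points for siBLM, -5.10 to 4.76 for siBRCA1 and -4.81 to 9.01 for siFANCM. Mean position for siBLM ranged over -0.58 to 0.48 bp, microhomology for siBRCA1 over -2.79 to 1.33 points, insertions for siFANCM over -1.26 to 0.82 and bait loss for siBLM over -2.89 to 2.42. Against joins before the first Ter element, blunt joins ranged over -1.10 to 1.14 and insertions over -2.29 to 3.45 points. Against later Ter elements, microhomology ranged over -11.6 to -4.46, blunt joins over 5.69 to 6.46, insertions over -3.11 to 0.86 and bait loss over -8.27 to -3.01 points. The cause of these changes was not tested. Without run B the comparison of Tus and I-SceI does not change, since neither group has that run.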

Other observations

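Run D libraries had a higher microhomology share than run C libraries of the same group in 7 of 8 groups, with 56.7% ± 15.5 in run D and 39.3% ± 5.59 in run C (SD, n = 8 each), a difference of 17.4 points (exact sign-flip permutation, two-sided p = 0.0234, adjusted p = 0.0703 over 6 measures). Mean position was 1.18 bp higher in run D (exact sign-flip permutation, adjusted p = 0.0781), and the share of leftward array joins at the first Ter element was 41.8% in run D and 41.4% in run C. Joined DNA had a median length of 148 bp over all members, 151.5 bp in BRCA1del and 137 bp in BRCA1flox cells.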
